A study of Solenopsis invicta with 12 samples.

Results

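The 102 genes described here are the members of the fire ant official gene set whose antennal level was lowest in monogyne workers. They were chosen among the 15589 official genes of the deposited tables, which list 19230 genes in all, by their level in TPM (a gene's share of all transcripts in a library, corrected for transcript length) in 12 antennal libraries. A member had a mean between 5 and 500 TPM over the 12 libraries, which left 8316 official genes. In each of the 4 bioreplicates its monogyne library was strictly below both polygyne libraries, which 231 of the 8316 genes met. The mean of the 8 polygyne libraries was at least 1.5 times the mean of the 4 monogyne libraries in 114 of them. A further 10 genes were dropped because polygyne SB/Sb workers were highest in every bioreplicate, and 2 more were left out by identifier. Since these values chose the members, the distance between monogyne and polygyne libraries is given below as a description. Intervals and counts of calls for it are printed beside their backgrounds, and nothing is read from them.

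The fire ant Solenopsis invicta lives in colonies with a single queen (monogyne) or with several queens (polygyne), and the form of a colony is tied to a supergene, a chromosome region whose SB and Sb variants hardly recombine. Workers perceive queens and nestmates mainly through the antennae, where odorant binding proteins carry odours through the sensillum fluid to receptors on sensory neurons, and enzymes break odours and foreign chemicals down. The study sampled 3 classes of workers to separate the social form from the supergene genotype, and 4 bioreplicates of each class are named by the numbers 2, 3, 6 and 7 of the labels. M_BB were SB/SB workers of the monogyne colonies Rui7, Zhuang3, Tan1 and Rui1, P_BB were SB/SB workers of the polygyne colonies Rui9, Gui3, Bang3 and Bo5, and P_Bb were SB/Sb workers of those same polygyne colonies. All were foraging workers drawn with honey, of unstated age, and no group received a treatment. Each library pooled the antennae of many workers of 1 class and colony, and its RNA was amplified before sequencing. The monogyne workers were thus all SB/SB, and a comparison of M_BB with the 8 polygyne libraries also holds a difference of genotype for the 4 P_Bb libraries. The 8 polygyne libraries came from 4 colonies, so that n = 8 below does not stand for 8 independent colonies. Per the study's methods, a bioreplicate number also ties each monogyne colony to its polygyne colony by shared field and sampling dates.

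Depth ranged from 1662249 (M_BB bioreplicate 7) to 4101327 (P_Bb bioreplicate 6) expected counts per library. The odorant receptor gene SiOR463 (XLOC_016888), a marker of antennal neurons, was detected in every library. It had 10.63 to 16 TPM in M_BB, 11.53 to 13.71 TPM in P_BB and 3.94 to 8.16 TPM in P_Bb. The study reports this gene as deleted in the Sb genome, so its level cannot compare neuron content between the genotypes. The receptor SiOR462 (SINVm1_gene_13698) ranged from 0 to 6.59 TPM. The binding protein gene SiOBP12 (SINVm1_gene_02111) reached 28.58 to 104.76 TPM in P_Bb and at most 10.25 TPM in P_BB and 1.97 TPM in M_BB. M_BB bioreplicate 2 stood apart from the other libraries. It was the lowest of the 12 libraries for 3029 of the 8316 official genes in the TPM range (36.4%), against 3.76%, 3.25% and 10.6% for M_BB bioreplicates 3, 6 and 7. The study lists a higher share of duplicate reads for it than for the other M_BB libraries, and the highest share for P_Bb bioreplicate 7. It also lost the most read pairs of the 12 libraries in the study's quality control. The part of either in its levels was not tested. M_BB bioreplicates 2 and 7 share the library name prefix LGC16 with the 2 polygyne libraries of bioreplicate 7, and the other 8 libraries carry the prefix LGC. The median ratio of the members is therefore given with and without bioreplicate 2 and within each prefix, and ratios of single genes within each prefix for some named members.

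Most members lay near the lower limits of the choice. The median polygyne to monogyne ratio of TPM was 1.73, the highest 5.50, and 29 of the 102 members reached a ratio of 2 and 6 a ratio of 3. Mean levels over the 12 libraries ran from 5.60 to 408 TPM with a median of 28.1 TPM, against 33.7 TPM for all 8316 genes in the range. They lay from 5 to under 10 TPM for 17 members, from 10 to under 50 TPM for 55, from 50 to under 100 TPM for 19 and at 100 TPM or more for 11. By the rule both polygyne classes lay above M_BB in each bioreplicate, so the counts by class only describe the choice. P_BB was at least 1.5 times M_BB in 88 members, P_Bb in 97 and both in 83, and the lowest ratios of single classes were 1.36 for P_BB and 1.39 for P_Bb. In pooled tissue, fewer cells that express a gene and less RNA per cell cannot be told apart. The members' transcripts were shorter, with a median of 871.5 bases against 1185.0 bases for all genes in the range, and 31.4% of the members against 22.6% of those genes were under 600 bases.

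**Figure D1:**
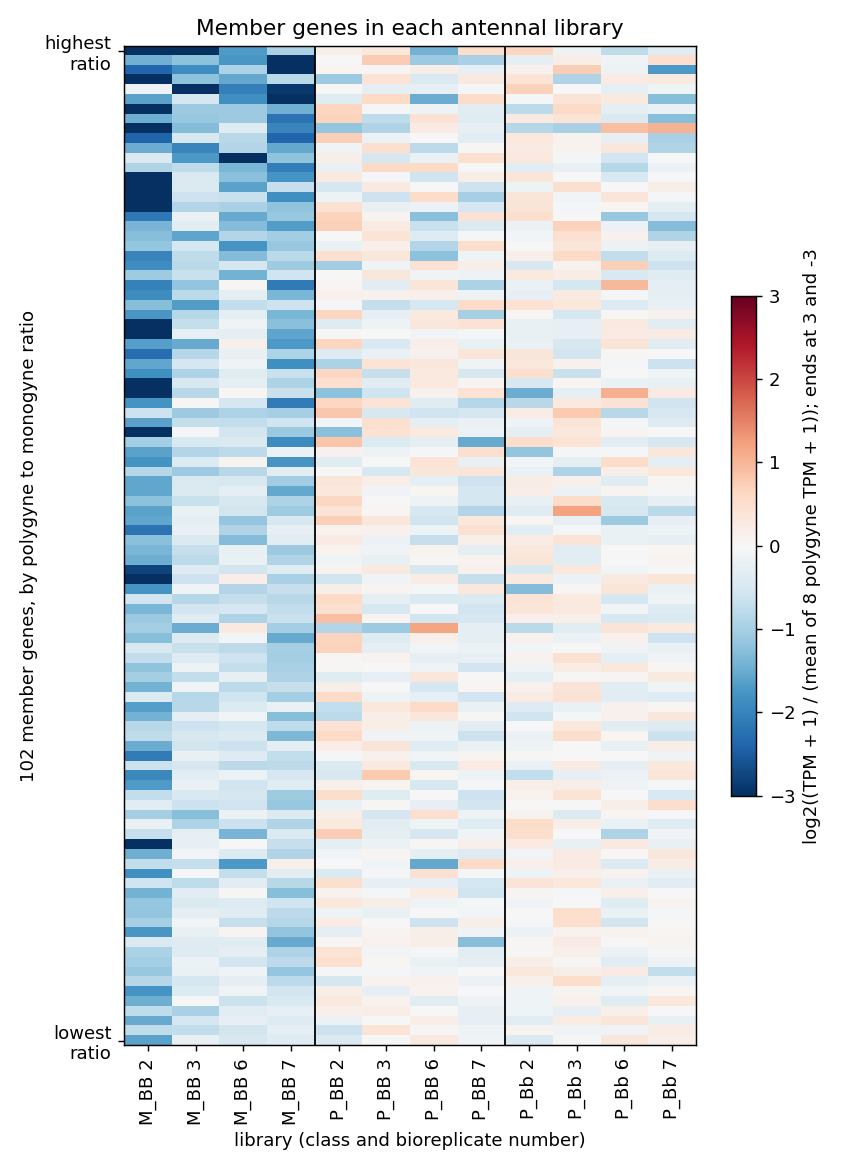
Each row is 1 of the 102 member genes, ordered by polygyne to monogyne ratio, and each column 1 of the 12 libraries. Colour gives log2 of (TPM + 1) over (mean of the 8 polygyne libraries + 1), blue below and red above 0, with values past the ends of the scale drawn at its ends. The M_BB columns are the blue ones, and M_BB bioreplicate 2 is the lowest library in 63 of the rows.

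Bioreplicate 2 gave the largest distance. M_BB bioreplicate 2 was the lowest of the 12 libraries for 63 members (61.8%), M_BB bioreplicate 7 for 21, M_BB bioreplicate 3 for 11 and M_BB bioreplicate 6 for 7. On the scale of log2((polygyne mean + 1)/(monogyne + 1)) of TPM, the members' median difference was 1.51 in bioreplicate 2, 0.60 in bioreplicate 3, 0.44 in bioreplicate 6 and 0.83 in bioreplicate 7. The medians of all 8316 genes were 0.27, -0.23, 0.04 and 0.20. In 75 members the difference was largest in bioreplicate 2. Transcript length moved with it: in bioreplicate 2 the median difference was 1.87 for the 32 members under 600 bases and 1.17 for the 21 members of 1500 bases or more, and for all genes of those lengths 0.59 and 0.10. Its part in the members' ratios was not tested. Without bioreplicate 2, the median ratio of the 102 members was 1.55, and 59 kept a ratio of at least 1.5, the lowest being 1.22. In 27 members M_BB bioreplicate 2 was under 0.5 times the lowest of the other 3 monogyne libraries (26.5%, against 18.3% of all genes in the range). Their median ratio was 1.93 with bioreplicate 2 and 1.54 without it, and that of the other 75 members was 1.69 and 1.55. By library name, the median ratio was 2.10 within the 4 LGC16 libraries and 1.53 within the 8 LGC libraries, with 85 and 56 members at 1.5 or more and 0 members below 1 in either. The rule keeps each monogyne library below its polygyne partners, so ratios above 1 are largely set by the choice. Within LGC16 the polygyne libraries are those of colony Bo5 alone. Within LGC they include colony Rui9, whose monogyne partner is not among them.

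**Figure D2:**
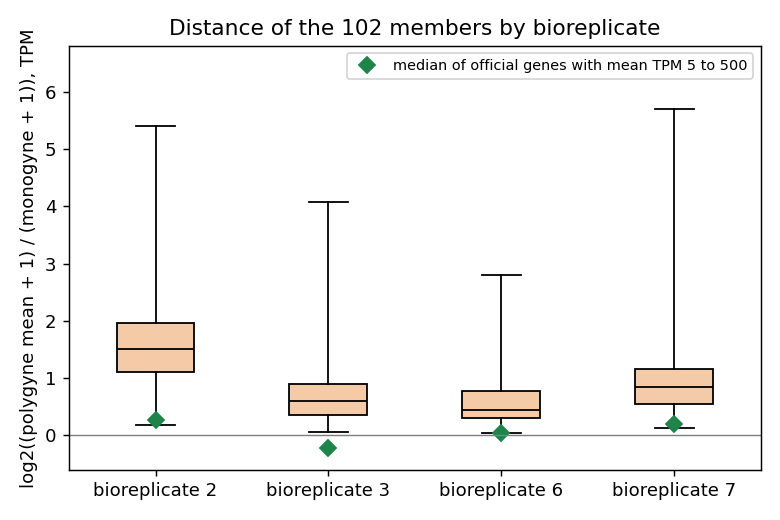
The y axis gives log2 of (mean of both polygyne libraries + 1) over (monogyne library + 1) in TPM for the 102 members in each bioreplicate on the x axis. Boxes span the quartiles with the median as a line, whiskers the full range, and diamonds are the medians of the 8316 official genes in the TPM range. The members' medians are 1.51, 0.60, 0.44 and 0.83 in bioreplicates 2, 3, 6 and 7.

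Only 3 of the 102 members carry a predicted function in the study's list of differentially expressed genes, and 0 of their identifiers matched the RefSeq gene table, so the other 99 are given by identifier alone. SINVm1_gene_01363 is predicted to encode subunit 2 of the COP9 signalosome, a complex that strips the ubiquitin-like protein Nedd8 from cullins, the scaffolds of a large class of ubiquitin ligases. Its level was 6.57, 31.08, 28.72 and 24.54 TPM in M_BB bioreplicates 2, 3, 6 and 7. In the same order it was 79.68, 49.44, 51.13 and 40.69 TPM in P_BB, and 75.87, 56.73, 60.09 and 48.01 TPM in P_Bb. All 4 monogyne libraries lay below all 8 polygyne libraries, and M_BB bioreplicate 2 lay well below the other monogyne libraries. The means were 22.7 ± 11.1 TPM (SD, n = 4) and 57.7 ± 13.7 TPM (SD, n = 8), a ratio of 2.54, which was 1.81 without bioreplicate 2. Within the LGC16 and LGC libraries the ratio was 2.85 and 2.08.

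SINVm1_gene_00238 is predicted as an esterase FE4-like protein. In the aphid Myzus persicae the FE4 carboxylesterase breaks down and binds insecticides. It had 33.81, 127.00, 111.88 and 88.32 TPM in M_BB bioreplicates 2, 3, 6 and 7. The 8 polygyne libraries held within 137.13 and 160.62 TPM, the narrowest polygyne spread of any member (SD of log2(TPM + 1) 0.08), and none overlapped the monogyne libraries. Means of 90.3 ± 40.9 TPM (SD, n = 4) and 148 ± 7.96 TPM (SD, n = 8) gave a ratio of 1.63, and 1.35 without bioreplicate 2, which is below the limit used to choose the members. By library name the ratio was 2.40 within the LGC16 and 1.24 within the LGC libraries.

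SINVm1_gene_04300 is predicted as a protein with ankyrin repeats and a LEM domain, ANKLE1, in human a nuclease that cuts branched DNA. Its levels were 13.97, 30.34, 20.05 and 16.58 TPM in M_BB, 34.59, 33.57, 31.07 and 22.10 TPM in P_BB and 30.97, 39.24, 41.92 and 35.14 TPM in P_Bb, again in bioreplicates 2, 3, 6 and 7. The groups overlapped here, since M_BB bioreplicate 3 was above P_BB bioreplicate 7. The ratio was 1.66, and 1.52 without bioreplicate 2, with 1.87 within the LGC16 and 1.40 within the LGC libraries.

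The study's list names 22 genes as lower in monogyne workers, a choice made on these same libraries, so that their direction is no independent evidence. Of these, 13 are XLOC genes (assembled transcripts outside the official set) and 9 are official genes. Besides the 3 members, 2 official genes are among the identifiers left out, and 4 did not meet the rule. SINVm1_gene_04713, predicted as a ribosomal RNA-processing protein 7 homolog, had a ratio of 1.48. SINVm1_gene_14059 had a ratio under 1.5 and SB/Sb highest in each bioreplicate, as SINVm1_gene_10481, a predicted HARBI1-like nuclease, did at a ratio of 1.75. SINVm1_gene_10721, predicted as the deoxyribonuclease TATDN1, was not lowest in monogyne workers in each bioreplicate. Of the 13 XLOC genes, 6 met the rest of the rule. In all, 82 of 2817 XLOC genes in the TPM range met it. Among the official genes the mirror image, monogyne workers highest in each bioreplicate and at least 1.5 times the polygyne mean, held for 82 genes, out of 147 that were highest in each bioreplicate. No test was made between these sets.

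In 15 members the 4 monogyne libraries all lay below the 8 polygyne libraries, as in 25 of the 8316 official genes in the range (0.301%). The rule itself favours such genes, and nothing is read from that comparison. Ranked by the lowest polygyne over the highest monogyne library, SINVm1_gene_01363 came first at 1.31, and 9 more genes are shown with it in the plot of non-overlapping members. SINVm1_gene_09036, a transcript of 324 bases, followed with 4.46, 41.73, 41.79 and 32.24 TPM in M_BB, 141.10, 85.54, 80.83 and 70.98 TPM in P_BB and 51.32, 134.38, 73.16 and 77.53 TPM in P_Bb. The polygyne libraries of colony Rui9 were thus its highest P_BB and its lowest P_Bb library. Its M_BB bioreplicate 2 value rested on 1 count. SINVm1_gene_03389 had 18.51, 35.08, 34.56 and 38.06 TPM in M_BB, and between 44.38 and 81.46 TPM in the polygyne libraries. SINVm1_gene_07668 had 32.14, 27.85, 25.29 and 21.86 TPM in M_BB, where bioreplicate 2 was the highest monogyne library, and 36.19 to 71.99 TPM in the polygyne libraries.

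In the next genes M_BB bioreplicate 2 lay near the other monogyne libraries. SINVm1_gene_09990 was even across monogyne libraries at 16.57, 19.41, 20.56 and 17.43 TPM and ranged from 23.13 to 41.04 TPM in the polygyne ones. SINVm1_gene_06969 had 54.54, 44.89, 49.38 and 46.15 TPM in M_BB against 57.14 to 125.10 TPM, and its ratio of 1.69 became 1.50 without bioreplicate 2, at the limit of the choice. SINVm1_gene_02683 had 7.37, 9.63, 8.07 and 5.85 TPM in M_BB against 10.54 to 18.11 TPM. Without bioreplicate 2 the ratio of SINVm1_gene_09990 went from 1.64 to 1.49, just under that limit, and that of SINVm1_gene_02683 from 1.66 to 1.61. SINVm1_gene_03392 lay at 2.72, 3.93, 1.92 and 4.16 TPM in M_BB and 4.67 to 8.96 TPM in the polygyne libraries, from 18 summed monogyne counts. SINVm1_gene_00416, at 2.42, 2.97, 1.75 and 0 TPM against 3.35 to 14.85 TPM, rested on 7.

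The remaining 5 genes of the 15 are named after their values were seen. SINVm1_gene_01226 had 29.65, 32.85, 26.60 and 26.73 TPM in M_BB against 33.99 to 59.17 TPM. SINVm1_gene_07768 and SINVm1_gene_10382 had ratios of 1.54 each. SINVm1_gene_14593 was the lowest of the set by ratio (1.52), with 4.87 to 8.64 TPM in M_BB against 8.67 to 12.14 TPM. SINVm1_gene_06613 stood out from them, at 3.48, 66.32, 65.85 and 25.85 TPM in M_BB against 67.02 to 94.65 TPM. Its ratio within bioreplicate 2 alone was 21.5, where the M_BB library held 2 counts, and within bioreplicate 3 1.09. The separation also depended on the unit. Of the 15 members, 9 did not overlap in FPKM, as 11 of the 8316 genes, and 7 in CPM (counts over library size) scaled by the trimmed mean of M values (TMM), as 21 of the 8316 genes. Both units kept 6 of them, namely SINVm1_gene_00238, SINVm1_gene_01363, SINVm1_gene_02683, SINVm1_gene_09036, SINVm1_gene_09990 and SINVm1_gene_10382.

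**Figure D3:**
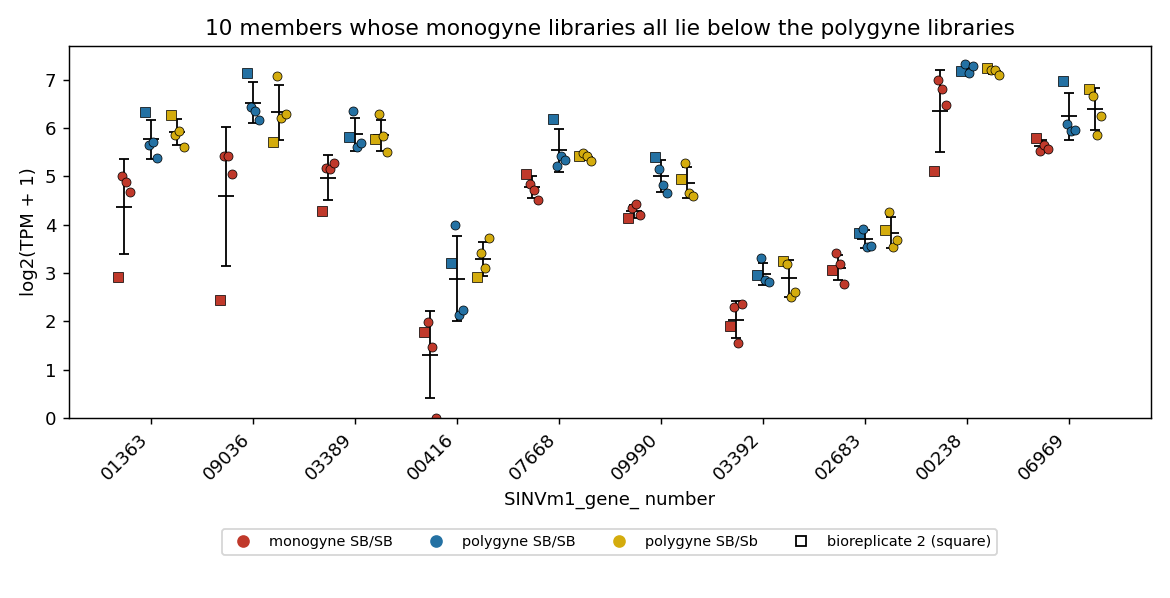
Points are log2(TPM + 1) on the y axis in the 4 libraries of each class for 10 members on the x axis, left to right by lowest polygyne over highest monogyne level, with squares for bioreplicate 2. The horizontal bar is the mean and the whisker the SD of the 4 libraries. Red monogyne points lie below all blue and yellow polygyne points, and the square is far down in SINVm1_gene_01363 (6.57 TPM), SINVm1_gene_09036 (4.46 TPM, 1 count) and SINVm1_gene_00238 (33.81 TPM).

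Among the 6 members of highest mean level, M_BB bioreplicate 2 again set much of the distance. SINVm1_gene_09049 had 30.29, 377.17, 216.31 and 149.48 TPM in M_BB, 626.97, 495.65, 341.20 and 586.19 TPM in P_BB and 660.84, 522.87, 377.19 and 515.89 TPM in P_Bb. Its M_BB bioreplicate 3 lay above P_BB bioreplicate 6, so the groups overlapped. It was the only member whose RSEM bounds (the credibility interval of the TPM within a library) lay apart from those of both polygyne libraries in all 4 bioreplicates. The ratio was 2.67, and 1.91 without bioreplicate 2. SINVm1_gene_10262, of 252 bases, had 11.17, 277.55, 421.69 and 190.91 TPM in M_BB and 344.74 to 611.77 TPM in the polygyne libraries. Its ratio moved from 2.01 to 1.63 without bioreplicate 2, and its M_BB bioreplicate 2 value rested on 1 count.

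SINVm1_gene_02943 had 153.42, 268.19, 284.29 and 239.13 TPM in M_BB and 266.54 to 560.98 TPM in the polygyne libraries. It had the most monogyne counts of any member, 2768, and ratios of 1.69 with and 1.34 without bioreplicate 2. SINVm1_gene_15428 and SINVm1_gene_08721 were low in both LGC16 monogyne libraries. The first had 86.33 and 87.32 TPM in M_BB bioreplicates 2 and 7 and 190.38 and 211.23 TPM in bioreplicates 3 and 6, against 176.23 to 320.68 TPM in the polygyne libraries. The second had 75.40 and 82.21 TPM, 158.21 and 207.35 TPM, and 132.07 to 234.93 TPM in the same order. Their ratios were 2.46 and 2.14 within the LGC16 libraries, and 1.34 and 1.16 within the LGC libraries. SINVm1_gene_09120 had 20.34, 185.04, 132.48 and 88.59 TPM in M_BB, and its lowest polygyne library was P_BB bioreplicate 2 at 80.72 TPM, below 3 of the monogyne libraries. The prefix is a name given to libraries, and what it stands for is not stated.

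Across all members, the RSEM bounds of M_BB lay below those of both polygyne libraries in 57 members in bioreplicate 2, 15 in bioreplicate 3, 12 in bioreplicate 6 and 16 in bioreplicate 7, or 55.9%, 14.7%, 11.8% and 15.7%. Over all 8316 genes the numbers were 1636 (19.7%), 289 (3.48%), 507 (6.10%) and 835. The bounds were not apart in any bioreplicate for 39 members. They were apart in 1 bioreplicate for 34 members, in 2 for 22, in 3 for 6 and in all 4 for 1, against 5826, 1802, 603, 81 and 4 of all 8316 genes in 0 to 4 bioreplicates. In most bioreplicates of most members the bounds of the single libraries thus overlapped.

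The highest ratios came from few counts. The 10 members of highest ratio included 6 with at most 13 summed counts over the 4 monogyne libraries at ratios over 3, and counts in this paragraph are rounded expected counts. SINVm1_gene_05763 (327 bases) had 0, 0, 3.39 and 6.30 TPM in M_BB and 4.38 to 20.85 TPM in the polygyne libraries, a ratio of 5.50 from 2 monogyne and 23 polygyne counts. The ratio of count rates was 5.42 with an exact 95% interval from 1.34 to 47.4, which covers counting error only. SINVm1_gene_00416 had a TPM ratio of 4.64 and a count rate ratio of 3.63 (1.65 to 9.46). SINVm1_gene_03757 had 5.04, 7.64, 15.16 and 0 TPM in M_BB and 8.47 to 51.33 TPM in the polygyne libraries, with a count rate ratio of 3.33 (1.86 to 6.5). These intervals are wide because the counts are low. SINVm1_gene_03555, with 3 monogyne counts, had 3.45 (1.04 to 18.0), and SINVm1_gene_15586, the shortest member at 222 bases, had 2.71 (0.925 to 10.8).

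SINVm1_gene_05412 was a special case. Its TPM was 15.63, 0, 3.44 and 1.47 in M_BB and 14.08 to 28.88 in the polygyne libraries, a ratio of 3.39. Its 10 monogyne and 23 polygyne counts gave a count rate ratio of 1.08 (0.496 to 2.55). RSEM estimated its length as 333.2, 498, 759 and 759 bases in M_BB bioreplicates 2, 3, 6 and 7 and as 237 to 319.6 bases in the polygyne libraries, and TPM divides by that length. The length differed by over 1.1 times between libraries in 3 of the 102 members and in 72 of all 8316 genes in the range. The TPM ratio of SINVm1_gene_05412 was 10.35 within the LGC and 1.91 within the LGC16 libraries.

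SINVm1_gene_09036 was described above and had a count rate ratio of 2.56 (1.69 to 4.02). SINVm1_gene_04522 had 5.26, 6.90, 7.21 and 2.73 TPM in M_BB and 6.13 to 26.70 TPM in the polygyne libraries. Its TPM ratio was 2.97 and its count rate ratio 2.08 (1.35 to 3.32). SINVm1_gene_12249 had 0, 33.40, 63.81 and 20.44 TPM in M_BB and the widest polygyne spread of any member, from 37.04 to 172.29 TPM. SINVm1_gene_10623, the longest of the 10 at 1653 bases, had 1.1, 6.98, 5.30 and 1.13 TPM in M_BB and 4.67 to 17.26 TPM in the polygyne libraries, and its ratio of 2.80 was 1.90 without bioreplicate 2. In all, 52 of the 102 members had at least 10 counts in every monogyne library, 4 had at most 3 in each, and 9 were at 0 in at least 1 monogyne library. The median of summed monogyne counts was 102.

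**Figure D4:**
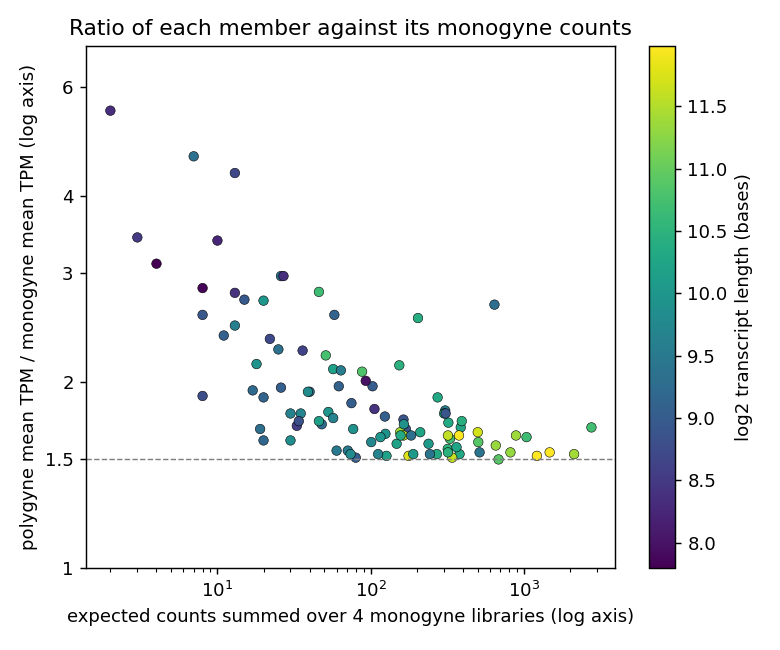
The x axis (log) gives expected counts summed over the 4 monogyne libraries and the y axis (log) the ratio of polygyne to monogyne mean TPM for the 102 members, coloured by log2 of transcript length in bases. The dashed line marks the ratio of 1.5 used in the choice. Ratios over 3 all sit at 13 monogyne counts or fewer, while members with over 1000 counts lie between 1.5 and 2.

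The members were then compared among the 4 polygyne colonies. The rule sets no order of colonies, but it used these same values and can favour genes that are high in a colony. The shares and calls by colony are therefore descriptive. Each polygyne colony is also a bioreplicate tied to field and sampling dates, so colony and dates cannot be told apart. Colony Rui9 (bioreplicate 2) had the highest mean of P_BB and P_Bb for 35 members, Gui3 for 33, Bang3 for 23 and Bo5 for 11, or 34.3%, 32.4%, 22.5% and 10.8%. Over all 8316 genes these shares were 14.1%, 21.2%, 38.9% and 25.8%. The same colony was highest in both genotypes for 36 members (35.3%, against 40.1% of all genes). In edgeR's quasi-likelihood test of the colony with genotype as a second term, over the 8 polygyne libraries and with Benjamini-Hochberg adjustment, 206 of 10702 genes passed an adjusted p of 0.05 (1.92%). Among the 90 members tested 2 passed (2.22%), which is near the share of all genes. At an unadjusted p under 0.05 the numbers were 28 of 90 members (31.1%) and 2656 genes (24.8%).

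Both genes that passed were highest in Rui9 and lowest in Bang3. SINVm1_gene_11491 had 99.71, 48.31, 40.92 and 53.40 TPM in P_BB and 85.24, 58.18, 30.43 and 54.98 TPM in P_Bb of Rui9, Gui3, Bang3 and Bo5. Both genotypes thus ranked Rui9 first and Bang3 last, with an adjusted p of 0.0223 in edgeR. It was also low in the monogyne colony paired with Bang3, with 36.38, 47.52, 21.82 and 43.50 TPM in M_BB. SINVm1_gene_05157 had 245.09, 187.13, 97.78 and 185.27 TPM in P_BB and 154.26, 124.78, 69.82 and 124.44 TPM in P_Bb (adjusted p = 0.0487 in edgeR), and each P_Bb library was below its P_BB library. Over the alternatives the edgeR, DESeq2 and limma adjusted p ranged from 5.66e-06 to 0.309 for SINVm1_gene_11491 and from 0.00128 to 0.395 for SINVm1_gene_05157. Both calls were lost without P_BB or P_Bb of bioreplicate 6 or 7, and that of SINVm1_gene_05157 also without P_BB bioreplicate 2 (adjusted p = 0.0896). With limma both were lost (adjusted p = 0.204 and 0.171), and SINVm1_gene_05157 also missed the threshold with upper-quartile factors, with at least 10 counts per library and with colony as the sole term. It passed in 5 of 14 alternatives and SINVm1_gene_11491 in 9. Leaving out a library leaves its colony with a single one, assumed to vary like the others.

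The next members by this test did not pass. SINVm1_gene_09049 had colony means of 644, 509, 359 and 551 TPM in Rui9, Gui3, Bang3 and Bo5 (adjusted p = 0.0515 in edgeR). SINVm1_gene_00875 had 200, 128, 101 and 65.9 TPM, SINVm1_gene_01011, the longest member at 4053 bases, 99.2, 76.3, 62.1 and 54.0 TPM, and SINVm1_gene_06969 118, 83.9, 58.8 and 68.5 TPM. In all of them Rui9 had the highest colony mean. The highest p-values of the colony test among members belonged to SINVm1_gene_08682, SINVm1_gene_09075 and SINVm1_gene_06613, whose colony means lay between 6.83 and 10.1, 34.4 and 50.7, and 72.6 and 85.5 TPM. In colony Bo5 both polygyne libraries carry the prefix LGC16, so this colony and the prefix cannot be told apart.

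**Figure D5:**
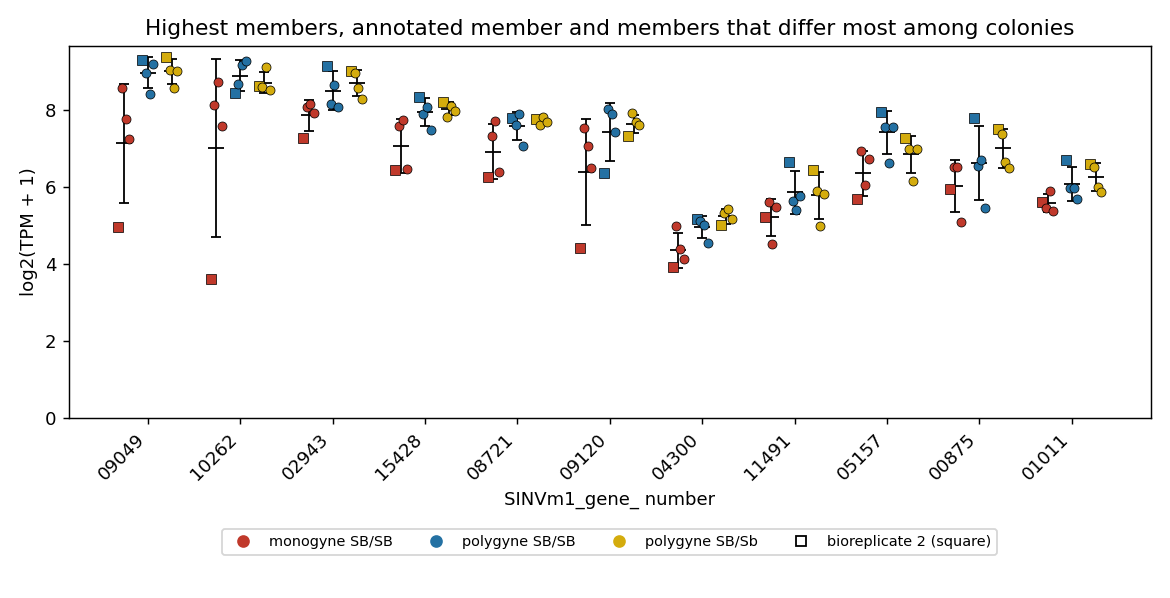
Points are log2(TPM + 1) on the y axis in the 4 libraries of each class for 11 members on the x axis, namely the 6 of highest mean, SINVm1_gene_04300 and the 4 with low colony p-values that are not plotted among the non-overlapping members. Within a class the points run from bioreplicate 2 (square) to 3, 6 and 7, and bars are mean and SD. In SINVm1_gene_11491 the polygyne squares are highest (99.71 and 85.24 TPM), and in SINVm1_gene_10262 the monogyne square is far below the rest (11.17 TPM, 1 count).

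Between the 2 polygyne genotypes the members' levels lay close together in the median. The P_Bb mean was above the P_BB mean in 55 members and below it in 47, with ratios from 0.60 to 1.67 and a median of 1.01. The rule touches this contrast, since it drops genes with P_Bb highest in each bioreplicate, so the numbers are descriptive. With edgeR 0 of 87 members tested passed an adjusted p of 0.05, as did 14 of 10503 genes (0.133%), and 0 members and 106 genes (1.01%) had an unadjusted p under 0.05. DESeq2 and limma also called 0 members. The median log2 difference of P_Bb from P_BB was -0.03 over the tested members.

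Among the 87 members that entered the fit, the largest differences between the genotypes went both ways. SINVm1_gene_08682 was lower in P_Bb (6.31 ± 1.43 TPM, SD, n = 4) than in P_BB (10.5 ± 3.18 TPM, SD, n = 4), a log2 difference of -0.81. SINVm1_gene_04522 had a log2 difference of -0.80 and SINVm1_gene_05157 one of -0.67. In the other direction, SINVm1_gene_02381 had 21.1 ± 6.4 TPM in P_BB and 29 ± 4.8 TPM in P_Bb (SD, n = 4 each), a log2 difference of 0.42. SINVm1_gene_00068 had one of 0.37 and SINVm1_gene_07521 one of 0.32. SINVm1_gene_12249, which had too few counts for the fit, had the highest ratio of P_Bb to P_BB of all members, 1.67, at 62.5 ± 28.1 and 104 ± 70.1 TPM (SD, n = 4 each). In SINVm1_gene_07521 the monogyne libraries were at 1.51, 32.77, 31.94 and 13.70 TPM, the first from 1 count. Its P_BB bioreplicate 3 at 32.93 TPM was only just above its monogyne partner.

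Fitted across all genes, the monogyne against polygyne contrast called few genes. With edgeR 3 of 10503 genes were lower in M_BB at an adjusted p under 0.05 (0.0286%), and 0 of the 87 members tested were. With a term for the bioreplicate, or one for the library name prefix, 0 genes and 0 members were called lower in M_BB. At an unadjusted p under 0.05, 61 of the 87 members and 386 genes (3.68%) were lower in M_BB, a share that the choice of members sets. Limma called 0 members. DESeq2 called 1, SINVm1_gene_01363 (log2 difference -1.35, DESeq2 adjusted p = 0.0192), on the contrast that chose the members. The study's own test on these libraries lists 3 members as lower in M_BB. The median log2 difference of M_BB from the polygyne classes was -0.71 over the tested members and 0.02 over all genes. The other 15 members had too few counts to enter the fit.

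In a split of the same libraries that chose the members, genes were chosen by the rule on 3 bioreplicates and read in the 4th. The sets so chosen overlap with the members. Of their genes with M_BB lowest in the held-out bioreplicate 2, 3, 6 or 7, 55, 92, 91 and 86 were members. The shares are therefore descriptive and no independent test of the members. All official genes in the range were not matched to these sets for transcript length, with which the difference in bioreplicate 2 moved. The part of length in the gaps was not tested. Chosen on bioreplicates 3, 6 and 7, 74 genes met the rule, and in 55 of them (74.3%) M_BB was also lowest in bioreplicate 2, as it was in 49.3% of all official genes in the range. With bioreplicate 7 held out the numbers were 94 of 154 (61.0%) against 50.0%. With bioreplicate 3 held out they were 108 of 399 (27.1%) against 22.8%, and with bioreplicate 6 held out 116 of 335 (34.6%) against 41.3%. The share was thus above that of all genes by 25.0 percentage points in bioreplicate 2, nearer to it in bioreplicates 7 and 3, and below it in bioreplicate 6. In TMM-scaled CPM the shares were 68.9% against 41.5% in bioreplicate 2, 51.3% against 39.2% in bioreplicate 7, 41.1% against 33.3% in bioreplicate 3 and 26.6% against 32.8% in bioreplicate 6. The larger gaps were in the 2 bioreplicates whose M_BB library carries the prefix LGC16. Each bioreplicate has a single M_BB library, so the prefix and other traits of that library cannot be told apart. The part of the prefix in the gaps was not tested.

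At the limit of the choice, the members with the lowest ratios were SINVm1_gene_00440 (52.2 and 78.3 TPM in the monogyne and polygyne mean), SINVm1_gene_02059 (33.2 and 50.2 TPM) and SINVm1_gene_09108 (15.2 and 22.9 TPM). Just outside it lay SINVm1_gene_08152 (88.7 and 133 TPM), SINVm1_gene_00697 (35.4 and 53.0 TPM, ratio 1.496) and SINVm1_gene_10278 (107 and 159 TPM, ratio 1.493), which met each other condition. SINVm1_gene_00697 was at 29.49, 30.99, 45.11 and 35.99 TPM in M_BB and between 43.19 and 61.81 TPM in the polygyne libraries. The members therefore pass without a break into genes that were not chosen. The scale mattered in the same way. Over all 8316 genes the median log2 ratio of polygyne to monogyne means was 0.02 in TPM, -0.04 in TMM-scaled CPM and -0.09 in FPKM, and over the members 0.79, 0.77 and 0.68. In FPKM, 73 members kept a ratio of at least 1.5, and in TMM-scaled CPM 91.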

How the data were processed

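Antennal RNA was measured in 12 libraries, 4 for each class, with class, colony and bioreplicate taken from the labels. Before deposition the authors trimmed reads by quality, aligned them with Bowtie to the official genes plus assembled XLOC genes, and made 1 RSEM table for each library. The expected count of each gene was deposited by the authors as RSEM's estimated count, not scaled for depth. The TPM and FPKM values deposited by the authors divide it by effective length and scale it within the library. The deposited tables also hold RSEM's credibility bounds on the TPM, which are other values. Duplicate reads of amplified RNA may remain in these values. The deposited exon annotation names no official gene and was not used.

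The members and lists were chosen with earlier results of these data known. Members were found from TPM. Rounded expected counts were fitted with edgeR (4.0.16, R 4.3.3), using TMM scaling, filterByExpr and the quasi-likelihood test, over 12 libraries for social form and genotype and over the 8 polygyne libraries for colony. Genes under a Benjamini-Hochberg adjusted p of 0.05 passed. The study's methods use no bioreplicate term, so the main fits by class have none. The numbers do pair the libraries, because the polygyne libraries of 1 number are from the same colony and the monogyne colony of that number shares its dates. Library deviations from the class mean correlated across genes with a median r of 0.233 (-0.362 to 0.65, 12 pairs) at equal numbers and -0.0876 at unequal numbers. Genes are not independent replicates.

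Logs of TPM use a pseudocount of 1. Intervals of count rates are exact 95% Clopper-Pearson intervals and cover counting error only, at 1662249 to 4101327 expected counts per library. The text names members with a predicted function, the 10 highest ratios, the 6 highest means, up to 10 without overlap, the lowest and highest colony p, the largest genotype differences, those at the limit, those past a test and the narrowest and widest polygyne spread. As alternatives, upper-quartile factors, no filter, a minimum of 10 counts per library, DESeq2 (1.42.0), limma (3.58.1) on logged TPM, a bioreplicate block, the library prefix, each library left out and other limits of the rule were used. The scripts were tested on simulated data. Python (3.11.15), with numpy (2.4.6), pandas (2.3.3), scipy (1.17.1) and matplotlib (3.10.9), was used for the rest.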

Additional observations from a re-analysis of the deposited data

Results flagged for a closer look

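Among the 38 named members, in 114 groups of 4 libraries, 3 single libraries lay far from the other 3 of their class by Dixon's criterion, which chance alone passes in about 1 group of 20. SINVm1_gene_06969 reached 125.1 TPM in P_BB bioreplicate 2, where the other P_BB libraries lay between 60.39 and 66.78 TPM. SINVm1_gene_07668 reached 71.99 TPM in the same library, against 36.19 to 42.15 TPM in the others. SINVm1_gene_10262 had 552.26 TPM in P_Bb bioreplicate 6, against 362.67 to 391.22 TPM. M_BB libraries gave 0 of these 3, although M_BB bioreplicate 2 was the lowest library for 63 members.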

How the results depend on the processing

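The rule found 102 genes. It found 53 with FPKM (52 of them members), 86 with TMM-scaled CPM (65 members), 180 at a looser ratio and 29 at a ratio of 2. Leaving out a bioreplicate gave 74 to 399 genes, of which 55 (without bioreplicate 2), 92, 91 and 86 were members. FPKM differs from TPM by a library's mean effective length, which was 1362 to 1595 bases in M_BB and 1491 to 1658 in the polygyne libraries. Members without overlap, 15 in TPM, numbered 9 in FPKM, 7 in TMM-scaled CPM and 28 to 46 with a bioreplicate left out, against 25, 11, 21 and 63 to 222 of all 8316 genes, in settings added after seeing the data. The 2 members called by colony became 1 with upper-quartile factors, 11 with no filter, 1 with at least 10 counts in every library, 10 with DESeq2, 0 with limma, 8 without a genotype term, 0 at an adjusted p of 0.01 and 0 to 26 with a library left out, and the cause was not tested. Over all genes the 206 colony calls became 1047 with no filter, 96 with at least 10 counts, 640 with DESeq2, 4 with limma, 527 without the genotype term and 11 to 2697 with a library left out. By genotype, 0 members were called in any setting, while the calls over all genes, 14, were 2 with at least 10 counts, 28 with DESeq2 and 1 to 22 with a library left out. For lower levels in M_BB, DESeq2 called 1 member and every other setting 0. The calls over all genes, 3, were 11 with DESeq2, 2 with at least 10 counts, 0 with the prefix and 0 to 3 with a library left out. With the replicate block 0 members were called in either contrast, so that the pairing changed no call of a member, and over all genes the calls were 0 for lower in M_BB and 11 by genotype. The ratios of the 38 named members stayed above 1 in each setting. With a bioreplicate left out the rule itself sets this, since it keeps each monogyne library below its polygyne partners. In TMM-scaled CPM and within each prefix the rule does not strictly set it. The same libraries chose the members, however, so nothing is read from ratios above 1. Of the 266 ratios, 4 moved by more than their spread over bioreplicates (1.1 for SINVm1_gene_05412 in TMM-scaled CPM). Depth limits the members with few counts, and 50 of the 102 had under 10 counts in at least 1 monogyne library.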
